A study of Mus musculus with 10 samples.

Results

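The 10 genes described here encode subunits of the transcription factor NF-kB (Nfkb1, Nfkb2, Rela and Relb), its inhibitors (Nfkbia, Nfkbie and Tnfaip3), the adhesion molecules Icam1 and Vcam1, and the cytokine Tnf. They were chosen by name as a pathway, and each symbol had 1 row among the 37819 features of the expression table. RNA was sequenced from cardiomyocytes (CMs) of C57BL6J mice without any genetic change or drug treatment, with 5 libraries from young mice (3 months) and 5 from old mice (20 months). The hearts came from mice of both sexes per the study's methods, and the labels give no sex for a library. CMs were released by enzymatic perfusion of the heart and cells carrying CD31, Sca-1 or CD45, which mark endothelial, stromal and blood cells, were taken out with magnetic beads. Nothing in the labels says whether a library came from 1 mouse. The study's legends for these data differ in their number per age, and 1 of them matches the 5 libraries labelled. So n counts libraries throughout, and the p-values measure the spread between libraries, which may be technical.

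NF-kB is a family of dimeric transcription factors that is held in the cytoplasm by inhibitor proteins of the IkB family. Receptors for tumour necrosis factor, interleukin-1 and bacterial products activate IkB kinases, the inhibitor is degraded and the dimer enters the nucleus. It then switches on cytokines, adhesion molecules and, as negative feedback, its own inhibitors. Activity is set mainly at the level of the proteins, so the mRNA levels below describe the abundance of transcripts and not the activity of the factor. In the heart, Icam1 and Vcam1 are best known from activated endothelial cells, where they bind integrins of leukocytes.

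Feedback by NF-kB on its own pathway acts through the kB motif, and the promoters of the genes with a match are shown because the abundance of these transcripts is the subject of the comparisons that follow. RefSeq promoter windows (GRCm38.p6), which run over 300 bases from 250 bases before each start, were given for 7 of the 10 genes, among them Icam1, Rela and Tnf. A match to the kB consensus (10 bases, read on either strand, overlapping matches counted) lay in a window of 4 of the 7, namely Nfkb2, Nfkbia, Nfkbie and Tnfaip3, against 9.55% of all 27025 genes with a window. Capitals mark the matched bases in the sequence before the start, 5′ to 3′ on the strand of the gene.
Nfkb2 (chr19:46304487-46304736, plus strand): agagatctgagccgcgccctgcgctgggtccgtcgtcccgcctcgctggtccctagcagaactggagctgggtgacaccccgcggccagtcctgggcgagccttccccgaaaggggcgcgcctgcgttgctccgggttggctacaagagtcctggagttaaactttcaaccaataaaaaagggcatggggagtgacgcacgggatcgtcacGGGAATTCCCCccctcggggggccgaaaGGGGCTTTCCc
Nfkbia (chr12:55492648-55492897, minus strand): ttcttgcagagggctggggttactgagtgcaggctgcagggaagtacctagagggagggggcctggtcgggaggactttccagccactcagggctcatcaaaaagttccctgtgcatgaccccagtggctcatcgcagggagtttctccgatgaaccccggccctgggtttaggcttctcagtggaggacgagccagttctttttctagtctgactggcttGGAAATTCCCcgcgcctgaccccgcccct
Nfkbie (chr17:45555450-45555699, plus strand): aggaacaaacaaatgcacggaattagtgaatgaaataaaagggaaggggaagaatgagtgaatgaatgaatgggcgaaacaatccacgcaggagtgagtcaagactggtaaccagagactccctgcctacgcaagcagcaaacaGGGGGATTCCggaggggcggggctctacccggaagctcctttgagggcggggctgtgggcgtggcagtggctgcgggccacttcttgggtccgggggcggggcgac
Tnfaip3 (chr10:19015411-19015660, minus strand): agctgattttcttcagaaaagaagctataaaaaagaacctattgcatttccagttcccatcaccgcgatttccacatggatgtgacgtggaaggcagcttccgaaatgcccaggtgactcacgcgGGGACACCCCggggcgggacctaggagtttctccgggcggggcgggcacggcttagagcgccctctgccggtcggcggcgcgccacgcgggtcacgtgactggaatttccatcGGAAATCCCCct
Nfkb2 had 3 windows with 3, 2 and 1 matches and Tnfaip3 had 2 windows with 2 and 0, and the first window of each is shown. In that of Nfkb2 the first match is a palindrome that overlaps the second. Nfkbia held a match at position -29 and Nfkbie at -106, and the matches of Tnfaip3 began at positions -125 and -12, counted from the start. A match of letters is not evidence that the factor was bound in these cells. Windows without a match, as for Icam1, Rela and Tnf, may still hold a site that departs from this consensus.

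Transcripts of all 10 genes were detected in every library. Levels are FPKM, fragments normalised by transcript length and by sequencing depth, so they can be compared between genes. Averaged over the 10 libraries, Nfkbia was highest (10.2 FPKM), followed by Nfkb1 (9.82), Rela (9.10), Nfkb2 (7.22), Relb (3.35), Icam1 (1.87), Vcam1 (1.36), Tnfaip3 (0.664), Tnf (0.393) and Nfkbie (0.338). Neighbours at the ends of this order were not separated, since Nfkbia exceeded Nfkb1 in 6 of 10 libraries and Tnf exceeded Nfkbie in 5 of 10. Rela exceeded Nfkb2, Nfkb2 exceeded Relb and Vcam1 exceeded Tnfaip3 in 10 of 10 libraries. Nfkbia lay above 81.0% of the features detected in any library and Nfkbie above 41.3%, so the pathway ranged from moderately to weakly expressed.

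**Figure D1:**
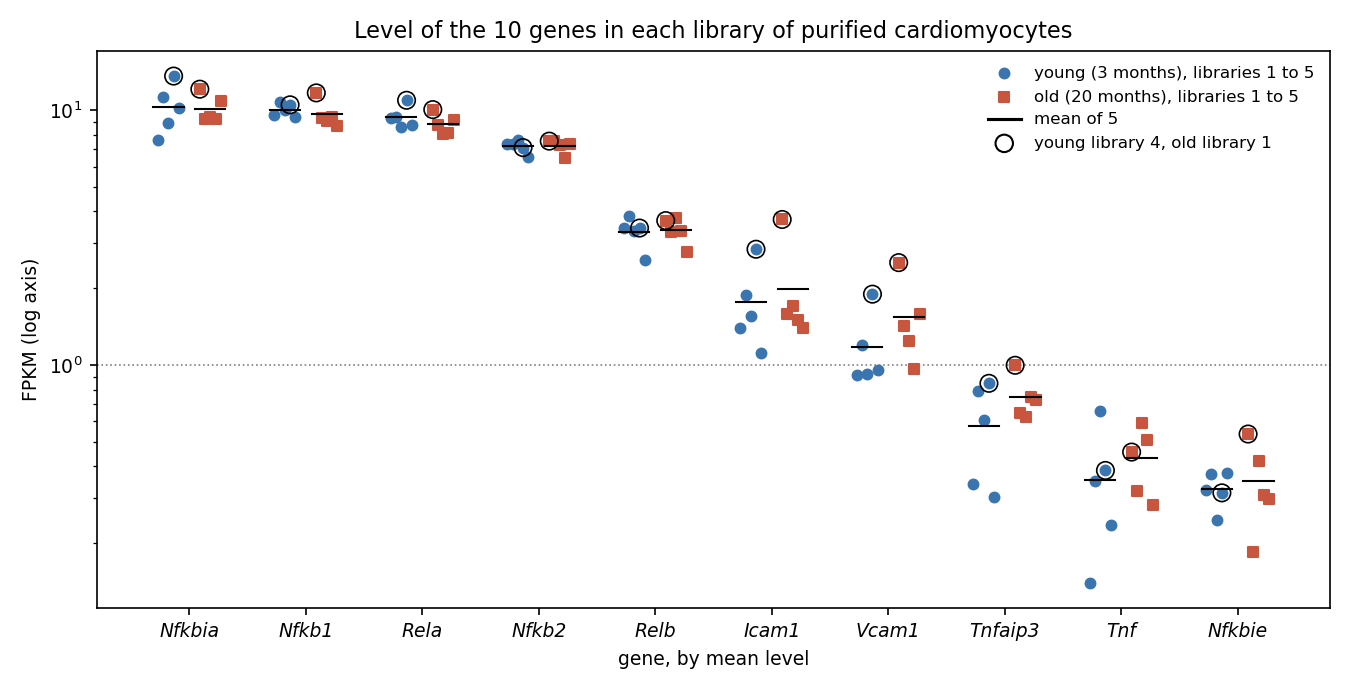
FPKM (log axis) of each gene in each library, with young libraries as circles, old libraries as squares and the mean of 5 as a bar. Rings mark young library 4 and old library 1, and the dotted line is the filter at a mean of 1 FPKM. Young and old points overlap for all 10 genes, and the ringed libraries are the highest of their age for Icam1 (2.84 and 3.72 FPKM) and Vcam1 (1.89 and 2.52 FPKM).

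For none of the genes did the difference between young and old CMs pass a test. Features averaging 1 FPKM or more over the libraries, 12340 in number, entered a limma fit of log2(FPKM + 1), and p-values were adjusted over all of them by the Benjamini-Hochberg method. Of the 10 genes 7 passed this filter, and limma called 0 of the 7 at an adjusted p of 0.05, with 0 of the 7 at an unadjusted p under 0.05. Among all tested features 1.78% were called (0.689% higher and 1.09% lower in old CMs) and 20.9% had an unadjusted p under 0.05. Old and young libraries overlapped for all 10 genes, while the ages did not overlap in 6.91% of the tested features (1.19% higher and 5.72% lower in old CMs). The value was above 0 for 4 of the 7 genes, against 31.3% of the tested features, but this count was 1 of 7 without old library 1, 2 of 7 without young library 5 or with the same total FPKM per library, and 6 of 7 with median-ratio scaling. The median log2 difference of the 7 genes was 0.0050 (old minus young), beside -0.058 over all tested features, and -0.065 beside -0.068 without old library 1. Tnfaip3, Nfkbie and Tnf were below the filter and were compared by exact permutation of the age labels over log2(FPKM + 1), two-sided.

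The subunits of the factor were the steadiest of the genes. Nfkb1, which encodes a precursor that is cut to a DNA-binding subunit (ENSMUSG00000028163, chromosome 3 from 135247619 to 135354511 in mm9), stood at 9.54, 10.7, 10.02, 10.5 and 9.34 FPKM in young libraries 1 to 5 and at 11.7, 9.29, 9.02, 9.41 and 8.68 FPKM in old libraries 1 to 5. Old library 1 was the highest of the 10, and the other 4 old libraries lay at or below 9.41 FPKM. The means were 10.02 ± 0.595 and 9.61 ± 1.18 FPKM (SD, n = 5), which on the log2 scale is a difference of -0.060 (95% interval -0.22 to 0.10, limma, adjusted p = 0.702). Without old library 1 the log2 difference was -0.13, which did not pass limma after adjustment (adjusted p = 0.240). Before adjustment limma gave p = 0.0348 there, and the exact permutation test p = 0.0397. With median-ratio scaling of the libraries, which moved the median of all tested features from -0.058 to -0.00012, the log2 difference of Nfkb1 was 0.0018.

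Rela encodes the subunit with a transactivation domain that pairs most often with the product of Nfkb1 (ENSMUSG00000024927, chromosome 19 from 5637483 to 5648130). It stood at 9.33, 9.42, 8.60, 10.9 and 8.72 FPKM in young and at 10.03, 8.69, 8.06, 8.12 and 9.15 FPKM in old libraries. Young library 4 and old library 1 were the highest of their age, and the ages overlapped. Its log2 difference was -0.083 (95% interval -0.25 to 0.080, limma, adjusted p = 0.568).

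Nfkb2 and Relb make up the non-canonical branch of the pathway, in which the Nfkb2 precursor is processed and its product pairs with Relb. Nfkb2 (ENSMUSG00000025225, chromosome 19 from 46379227 to 46386580) stood at 7.36, 7.36, 7.62, 7.12 and 6.55 FPKM in young and at 7.55, 7.55, 7.26, 6.46 and 7.35 FPKM in old libraries. It was the gene with the narrowest interval, with a log2 difference of 0.0050 (95% interval -0.11 to 0.12, limma, adjusted p = 0.973). Its coefficient of variation was 5.65% in young and 6.21% in old CMs, close to the 5.60% that counting alone gives at the authors' mean normalized count of 319. Relb (ENSMUSG00000002983, chromosome 7 from 20191566 to 20214787) stood at 3.46, 3.83, 3.34, 3.44 and 2.57 FPKM in young and at 3.68, 3.32, 3.77, 3.35 and 2.76 FPKM in old libraries. Here young library 5 and old library 5 were the lowest of their age. Its log2 difference was 0.018 (95% interval -0.18 to 0.22, limma, adjusted p = 0.941).

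Among the inhibitors, Nfkbia was abundant and the others were weak. Nfkbia encodes IkB alpha, the inhibitor that NF-kB itself induces most quickly (ENSMUSG00000021025, chromosome 12 from 56590398 to 56593634, with the match shown above before its start). It stood at 7.62, 11.3, 8.86, 13.6 and 10.1 FPKM in young and at 12.1, 9.24, 9.35, 9.19 and 10.8 FPKM in old libraries. The young libraries held both the lowest and the highest value, and all 5 old libraries lay between them. Its means were 10.3 ± 2.29 and 10.1 ± 1.27 FPKM (SD, n = 5), which on the log2 scale is a difference of -0.0052 (95% interval -0.30 to 0.29, limma, adjusted p = 0.988). With median-ratio scaling it was 0.056, a move about as large as that of all tested features.

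Nfkbia was also set against Rela, the subunit its product binds, within each library. The ratio of Nfkbia to Rela was 0.817, 1.20, 1.03, 1.24 and 1.16 in young and 1.20, 1.06, 1.16, 1.13 and 1.18 in old libraries. Young library 1 was the only library in which Nfkbia was below Rela. On the log2(FPKM + 1) scale the excess of Nfkbia averaged 0.10 ± 0.22 (SD) over the young and 0.18 ± 0.063 over the old libraries (p = 0.587 by exact permutation).

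Tnfaip3 encodes a ubiquitin-editing enzyme that ends NF-kB signalling (ENSMUSG00000019850, chromosome 10 from 18720716 to 18735463). It stood at 0.342, 0.792, 0.606, 0.847 and 0.303 FPKM in young and at 0.996, 0.648, 0.624, 0.747 and 0.730 FPKM in old libraries. All 5 old libraries lay above the young median of 0.606 FPKM, but 2 young libraries lay above the old median of 0.730 FPKM. The means were 0.578 ± 0.250 and 0.749 ± 0.148 FPKM (SD, n = 5), a difference within the spread of the libraries (exact permutation test, p = 0.238). Nfkbie, which encodes IkB epsilon (ENSMUSG00000023947, chromosome 17 from 45692665 to 45700118), ranged from 0.247 to 0.376 FPKM in young and from 0.184 to 0.536 FPKM in old libraries, with medians of 0.323 and 0.309 (exact permutation test, p = 0.794). The authors' mean normalized count of Nfkbie was 11.0, at which counting alone gives a coefficient of variation of 30.1%.

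**Figure D2:**
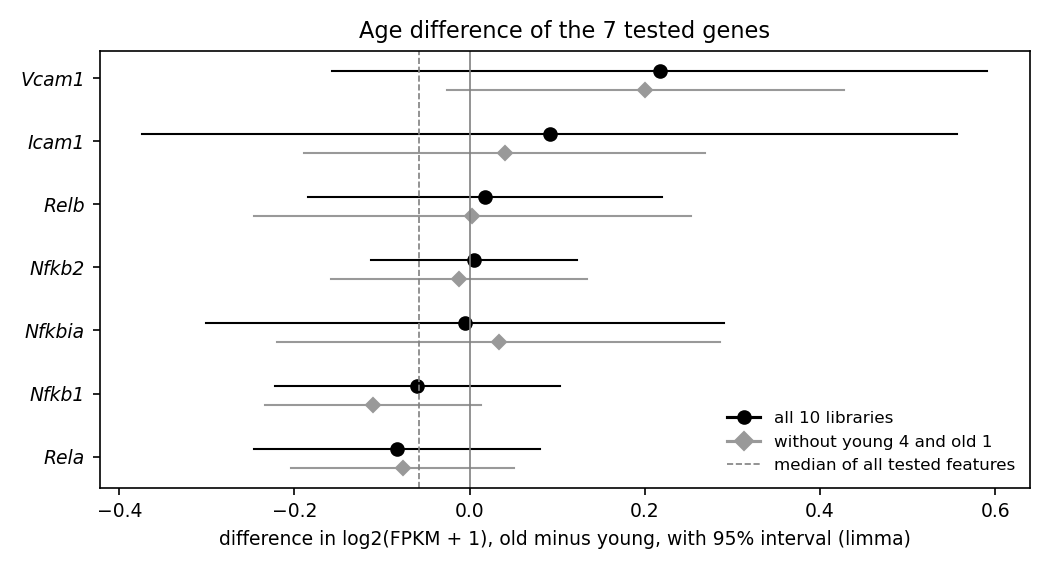
Difference in log2(FPKM + 1) between old and young CMs for the 7 tested genes, as points with 95% intervals from limma, with all 10 libraries (circles) and without young library 4 and old library 1 (diamonds), and the median of all tested features as a dashed line. All 14 intervals include 0, and those of Icam1 are -0.37 to 0.56 with all libraries and -0.19 to 0.27 without the pair.

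The adhesion genes were the most variable of the tested ones. Icam1, which encodes the ligand of leukocyte beta-2 integrins (ENSMUSG00000037405, chromosome 9 from 20820404 to 20833241), stood at 1.40, 1.89, 1.55, 2.84 and 1.12 FPKM in young and at 3.72, 1.58, 1.70, 1.50 and 1.39 FPKM in old libraries. Young library 4 and old library 1 stood apart, and the other 8 libraries lay between 1.12 and 1.89 FPKM. The means were 1.76 ± 0.667 and 1.98 ± 0.979 FPKM (SD, n = 5), which on the log2 scale is a difference of 0.091 (95% interval -0.37 to 0.56, limma, adjusted p = 0.858). Without old library 1 it was -0.087 and without both of these libraries 0.040 (limma, adjusted p = 0.868), so the sign depended on 1 library. The spread within an age, with coefficients of variation of 37.9% and 49.5%, was above the 11.2% of counting alone.

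Vcam1, which encodes the ligand of an integrin of lymphocytes and monocytes (ENSMUSG00000027962, chromosome 3 from 115812938 to 115832606), stood at 0.917, 1.20, 0.923, 1.89 and 0.953 FPKM in young and at 2.52, 1.43, 1.24, 0.965 and 1.59 FPKM in old libraries. All 5 old libraries lay above the young median of 0.953 FPKM, but young library 4 exceeded 4 of them. The means were 1.18 ± 0.418 and 1.55 ± 0.590 FPKM (SD, n = 5), with a log2 difference of 0.22 that was the largest of the tested genes (95% interval -0.16 to 0.59, limma, adjusted p = 0.519). Without young library 4 and old library 1 it was 0.20 (95% interval -0.026 to 0.43, limma, adjusted p = 0.322). It was 0.093 without old library 1 and 0.32 without young library 4.

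Tnf, the cytokine that both activates and is induced by NF-kB (ENSMUSG00000024401, chromosome 17 from 35336326 to 35338952), was weakly expressed and rested on few counts. It stood at 0.140, 0.349, 0.660, 0.386 and 0.236 FPKM in young and at 0.455, 0.321, 0.594, 0.508 and 0.283 FPKM in old libraries. The lowest and the highest value were both from young libraries. The means of 0.354 ± 0.196 and 0.432 ± 0.129 FPKM (SD, n = 5) did not differ beyond this spread (exact permutation test, p = 0.444). The authors' mean normalized count of Tnf was 9.42, at which counting alone gives a coefficient of variation of 32.6% per library.

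Libraries with more RNA of other cell types had more of several of these transcripts. The 12 endothelial markers, such as Pecam1 and Cdh5, added up to 382 FPKM in young library 4 and 407 FPKM in old library 1, against 175 to 273 FPKM in the other 8. The 9 fibroblast markers added up to 226 and 260 FPKM in these libraries, against 92.1 to 137 FPKM. The 12 leukocyte markers added up to 72.3 and 50.3 FPKM, against 23.5 to 44.4 FPKM, with the T cell gene Cd3e at 0 in 8 libraries and the B cell gene Cd79a at 0 in 2. CM markers were far more abundant in all libraries, and their sum was lowest in the same pair (36545 and 35026 FPKM, against 38035 to 44154). In bulk RNA, fewer cells of a type and less RNA per cell cannot be told apart.

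Set against the median of the other libraries of its age, young library 4 had 1.93 times as much Icam1, 2.02 times as much Vcam1, 1.79 times as much Tnfaip3 and 1.43 times as much Nfkbia. Old library 1 had 2.41, 1.89, 1.45 and 1.30 times as much of these genes. The sums of endothelial markers were 1.72 and 1.80 times and those of fibroblast markers 2.18 and 2.18 times the same reference. Nfkb2 (0.967 and 1.03 times) and Relb (1.01 and 1.11 times) did not follow. Old library 1 was the highest old library for 8 of the 10 genes and young library 4 the highest young library for 5 of the 10. The same held for 30.8% and 25.5% of all tested features, a set without Tnfaip3, Nfkbie and Tnf, which were below the filter. Nfkb2 was among the 8 only narrowly, at 7.55 FPKM in both old library 1 and old library 2. With the mean of the endothelial markers as a covariate, the log2 differences of Icam1, Vcam1 and Nfkbia were 0.065, 0.20 and -0.018 (limma, adjusted p = 0.633, 0.242 and 0.929). With that of the leukocyte markers they were 0.038, 0.18 and -0.037 (limma, adjusted p = 0.887, 0.371 and 0.840). The part of other cells in the levels of Icam1, Vcam1, Tnfaip3 and Nfkbia was not tested. Between the ages, the endothelial sums ranged from 175 to 382 FPKM in young and from 211 to 407 FPKM in old libraries, and limma called 0 of the 12 endothelial, 0 of the 8 tested leukocyte and 0 of the 9 fibroblast markers (unadjusted p under 0.05 for 0, 0 and 1 of them). The log2 differences of all 9 fibroblast markers were above 0, with a median of 0.10. Those of all 7 mural cell markers were below 0, with a median of -0.12 (0 called by limma, 1 at an unadjusted p under 0.05). Over all tested features 31.3% were above 0 and the median was -0.058, so the mural markers lay on the more common side. Of all tested features 1.78% were called and 20.9% had an unadjusted p under 0.05. The mural sums were 160 FPKM in young library 4 and 155 FPKM in old library 1, against 75.3 to 129.9 FPKM in the others.

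**Figure D3:**
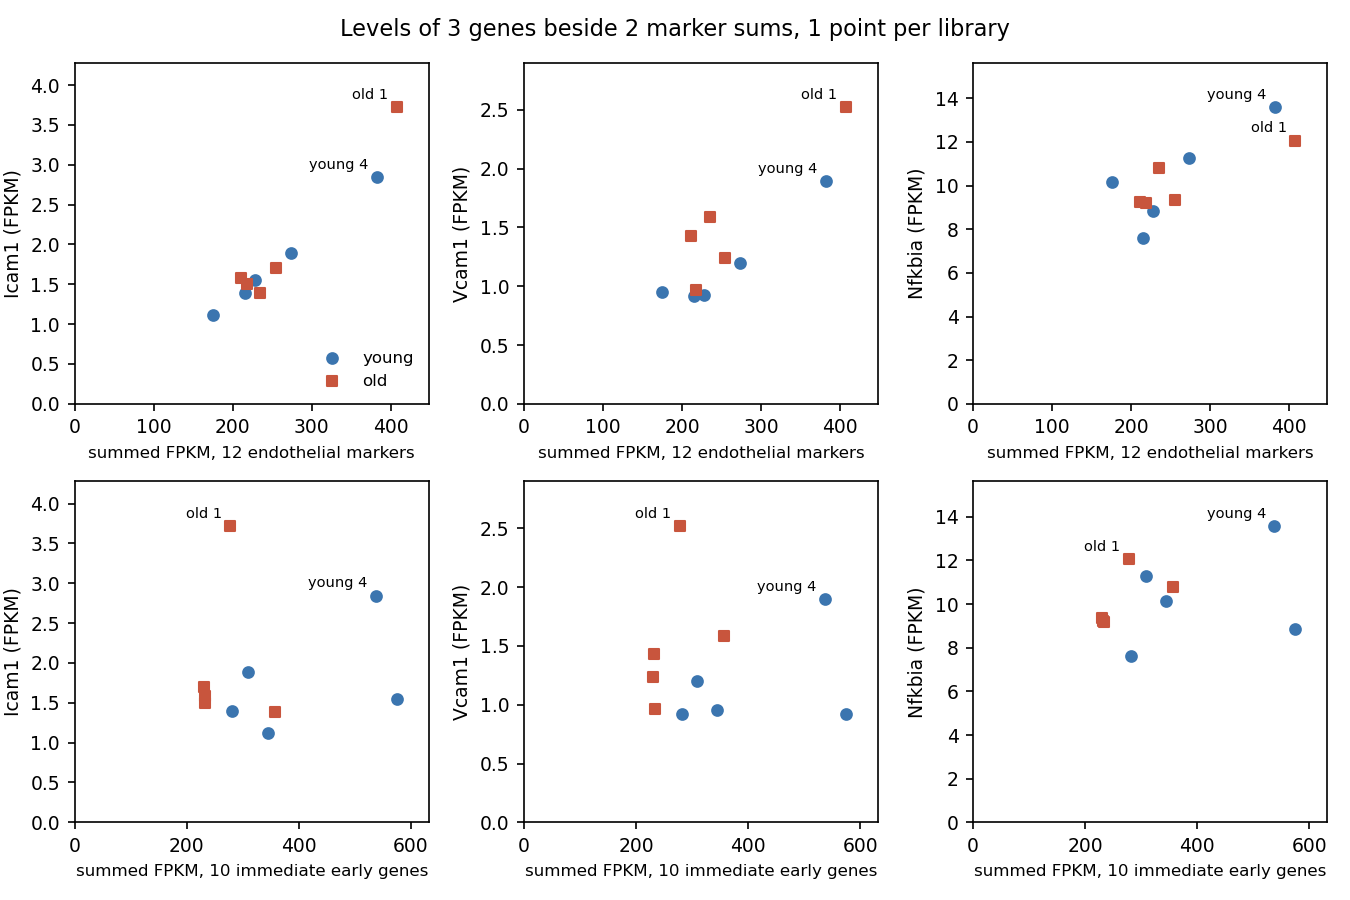
FPKM of Icam1, Vcam1 and Nfkbia in each library (young circles, old squares) against the summed FPKM of 12 endothelial markers (upper row) and of 10 immediate early genes (lower row). Young library 4 and old library 1 lie at the upper right against the endothelial sum (382 and 407 FPKM). The highest immediate early sums are those of young libraries 3 and 4 (575 and 537 FPKM), which have 8.86 and 13.6 FPKM of Nfkbia.

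Immediate early genes, which tissue dissociation can induce, had another distribution over the libraries. The 10 genes added up to 282, 309, 575, 537 and 345 FPKM in young and to 278, 233, 231, 233 and 357 FPKM in old libraries. Of the 9 tested members all 9 had lower values in old CMs, with a median log2 difference of -0.46 beside -0.058 over all tested features. Limma called 0 of them (smallest adjusted p = 0.0806, Dusp1), although 4 had an unadjusted p under 0.05. Over all tested features 1.78% were called, 20.9% had an unadjusted p under 0.05 and 31.3% had a log2 difference above 0. Young library 3, with the highest sum, had 8.86 FPKM of Nfkbia, and young library 4, with the next highest, had 13.6 FPKM, the highest of all libraries. Among old libraries, library 5 had the highest sum and 10.8 FPKM of Nfkbia, and library 1 had a sum of 278 FPKM and 12.1 FPKM of Nfkbia. With the mean of these genes as a covariate, Nfkbia had a log2 difference of 0.14 (limma, adjusted p = 0.728). The part of dissociation in the level of Nfkbia was not tested.

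The rest of the pathway was likewise without a called gene, in any of 6 lists arranged by role. Beside the counts of each list stand the shares over all tested features, 1.78% called and 20.9% at an unadjusted p under 0.05. Lists this small would hold few calls or none at the first share, so the absence of calls says little about the pathway. Of 24 receptors and adaptors 18 were tested and limma called 0, with 3 at an unadjusted p under 0.05. Tlr4, the receptor for bacterial lipopolysaccharide, stood at 3.89 ± 0.506 and 4.99 ± 0.806 FPKM (SD, n = 5), which on the log2 scale is a difference of 0.29 (limma, adjusted p = 0.156). Ticam1, an adaptor of Toll-like receptors, had a log2 difference of -0.19 (adjusted p = 0.116), Map3k7, a kinase upstream of the IkB kinases, one of 0.22 (adjusted p = 0.229) and Traf3, which restrains the non-canonical branch, one of 0.18 (adjusted p = 0.257). The receptor for the Tnf protein that most cells carry, Tnfrsf1a, was at 10.7 ± 3.11 and 11.8 ± 2.17 FPKM (SD, n = 5), well above the level of Tnf itself in the same libraries.

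Of the 6 IkB kinases and related kinases 4 were tested, with 0 called and 0 at an unadjusted p under 0.05. The catalytic subunits Chuk and Ikbkb and the scaffold subunit Ikbkg had log2 differences of 0.0085, -0.0081 and -0.065, and Tbk1, a related kinase of the interferon response, one of -0.14 (limma, adjusted p = 0.310). Of 5 other Rel and IkB genes 3 were tested and 0 called, with 0 at an unadjusted p under 0.05. The inhibitor gene Nfkbib, at 14.7 ± 1.11 and 13.2 ± 1.23 FPKM (SD, n = 5), was more abundant than Nfkbia, and its log2 difference was -0.14 (limma, adjusted p = 0.279). Rel and Bcl3 had log2 differences of -0.0016 and 0.020.

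Of 9 further negative regulators with a row, 7 were tested and 0 called, with 3 at an unadjusted p under 0.05. Tnip1 and Tnip2, whose products act together with that of Tnfaip3, had log2 differences of 0.23 and 0.22 (limma, adjusted p = 0.170 and 0.179), Fam105b, the gene of the deubiquitinase OTULIN, one of 0.13 (adjusted p = 0.243) and Rnf11 one of -0.14 (adjusted p = 0.162). The median of this list was 0.086. Of 18 other inducible targets 10 were tested and 0 called, with 1 at an unadjusted p under 0.05. This was Sod2, the mitochondrial superoxide dismutase, at 149.9 ± 9.59 and 131 ± 7.93 FPKM (SD, n = 5), which on the log2 scale is a difference of -0.19 (limma, adjusted p = 0.107). The death receptor gene Fas had a log2 difference of -0.15 (adjusted p = 0.435), the apoptosis inhibitor gene Birc3 one of 0.19 (adjusted p = 0.545) and Ier3 one of -0.19 (adjusted p = 0.686). The endothelial adhesion gene Sele, a classical NF-kB target, was below the filter at 0.196 ± 0.0849 and 0.332 ± 0.164 FPKM (SD, n = 5).

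Of 10 adhesion genes that include the integrin partners of Icam1 and Vcam1, 6 were tested and 0 called, with 1 at an unadjusted p under 0.05. Itgb1, the beta-1 integrin, stood at 124 ± 6.36 and 109 ± 4.64 FPKM (SD, n = 5), which on the log2 scale is a difference of -0.17 (limma, adjusted p = 0.0871). Itgam, an integrin subunit of myeloid cells that binds Icam1, had a log2 difference of 0.17 (adjusted p = 0.423), Icam2 one of -0.14 (adjusted p = 0.800) and Cd44 one of -0.058 (adjusted p = 0.850). Itga4, the integrin subunit that binds Vcam1, was at 0.0580 ± 0.0250 and 0.0559 ± 0.0187 FPKM (SD, n = 5) and was not tested.

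**Figure D4:**
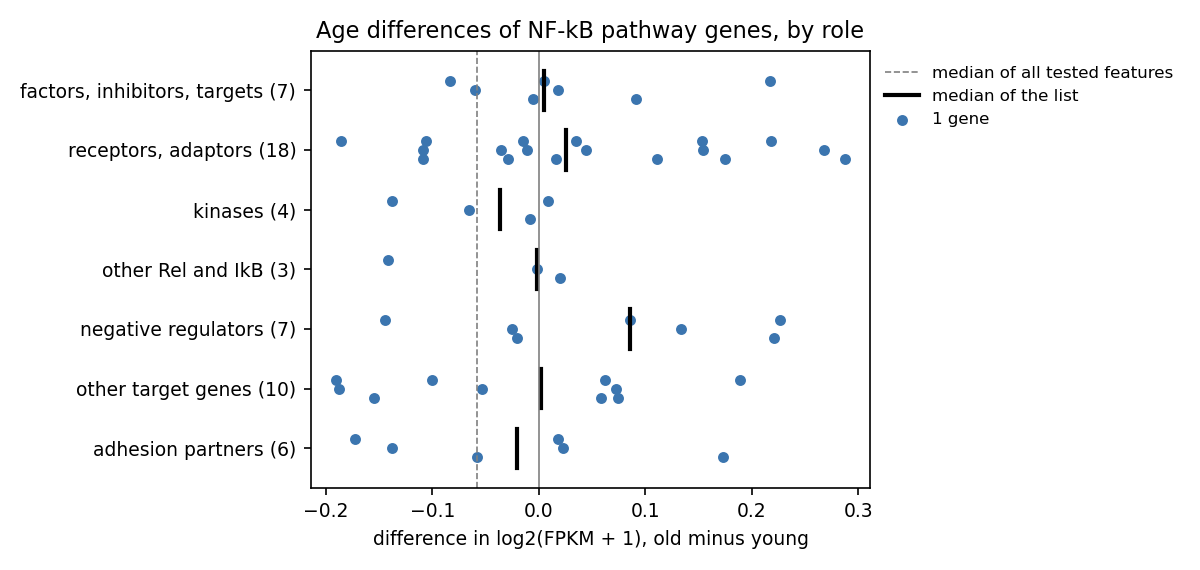
Difference in log2(FPKM + 1) between old and young CMs for each tested gene, 1 point per gene, by role, with the number of tested genes in brackets, the median of each list as a bar and the median of all tested features (-0.058) as a dashed line. The list medians lie between -0.037 (kinases) and 0.086 (negative regulators), and no gene shown was called, beside 1.78% of all tested features.

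Likeness between genes was described by the Pearson correlation of log2(FPKM + 1) over the 10 libraries, after each age had been centred on its own mean. The features most like Icam1 were X99384 (r = 0.986), Fmr1, an RNA-binding protein gene (r = 0.983), and the acyl-CoA synthetase gene Acsl5 (r = 0.982). Those most like Vcam1 were the extracellular matrix gene Ecm1 (r = 0.990), Gm16340 (r = 0.989) and Dpt, the gene of the matrix protein dermatopontin (r = 0.985). Ecm1 and Dpt had 7.75 and 12.8 FPKM in young library 4 and 8.93 and 10.9 FPKM in old library 1, the highest values of their age, like Vcam1.

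Nfkbia was most like Stk17b, a protein kinase gene (r = 0.979), Galntl2 (r = 0.973) and Pkp4, which encodes an armadillo protein of cell junctions (r = 0.967). Rela was most like Pmp22 (r = 0.979), the chemerin receptor gene Cmklr1 (r = 0.973) and Sgce, a sarcoglycan gene (r = 0.972). Nfkb1 was most like Arrdc4 (r = 0.958), Eif2ak2, the kinase that senses double-stranded RNA (r = 0.951), and Prkacb, a catalytic subunit of protein kinase A (r = 0.948). Among the genes themselves r was highest between Rela and Vcam1 (0.941), Nfkb1 and Icam1 (0.900) and Icam1 and Vcam1 (0.884), and near 0 between Nfkb2 and Nfkbia (0.00030). These values rest on the same 10 libraries, 2 of which stand apart, and were picked as the highest of 12340 features.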

How the data were processed

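RNA of purified CMs was measured in 5 young and 5 old libraries. Per the labels all libraries shared a flow cell. The submitters' processing notes name mm9, TopHat, Cufflinks, HTSeq and DESeq2, with versions not given in the sources used here. Only uniquely aligned reads were kept, and the FPKM deposited by the authors come from Cufflinks. They were used as given after 1 stray header line was removed. Reads were also counted with HTSeq, and the deposited signal used here is the authors' mean normalized count over all libraries from DESeq2, as a measure of depth only. Its 5 entries that name no gene held 73.9% of that signal and were left out. The fold changes and p-values of that comparison and its 10 columns of values that match no label were not used. The depth per library is not given in the sources used here, and library totals ran from 1155614 to 3289461 FPKM. FPKM are not counts, so no count model was fitted.

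The 12340 features averaging 1 FPKM or more entered a limma fit (version 3.58.1 under R 4.3.3, trended eBayes) of log2(FPKM + 1), and two-sided p-values were adjusted over all of them by the Benjamini-Hochberg method. The fit was tested on simulated data. Exact permutation tests of single values, two-sided and unadjusted, ran in Python 3.11.15 with scipy 1.17.1, and figures were drawn with matplotlib 3.10.9. Intervals at 95% are from limma. Counting error was taken as the inverse square root of the mean normalized count. It covers counting only, and reads amplified by PCR are not independent molecules. GENCODE gave the mm9 coordinates of the genes, and RefSeq the promoter sequences, whose build (GRCm38.p6) is another one.

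Named genes are the 10 genes, up to 4 members of each pathway list with the smallest limma p, and the 3 features most like each of Nfkbia, Icam1, Vcam1, Nfkb1 and Rela, and genes of the marker lists where a result turns on them. Tnfrsf1a, Sele, Itga4, Dusp1, Pecam1, Cdh5, Cd3e and Cd79a were named after their values were seen. The genes, lists and alternatives were chosen with earlier results of these data known. As alternatives, the tests were repeated with a pseudocount of 0.1, no filter, a minimum of 5 FPKM, 2 scalings, a replicate block, robust eBayes, array weights, 3 marker covariates, FPKM in place of log2 values in the permutation tests, and libraries left out. Of the listed symbols, Otulin is in the table as Fam105b and Adgre1 as Emr1.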

Additional observations from a re-analysis of the deposited data

Results flagged for a closer look

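Within groups of 5 libraries, the lowest or highest value was set against its nearest neighbour for the 10 genes and for the excess of Nfkbia over Rela. Of 22 groups 4 held a library that stood apart by Dixon's criterion, where chance gives about 1 in 20 for independent groups. The groups reuse the same 10 libraries and several genes vary together. They are therefore not independent, and no excess over that rate can be read from the count. Old library 1 stood apart for Icam1 (3.72 FPKM, the next old library at 1.70) and for Nfkb1 (11.7 FPKM, the next at 9.41). Young library 4 stood apart for Vcam1 only narrowly, by 0.711 of the range (1.89 FPKM, the next young library at 1.20). These are the libraries with the highest endothelial and fibroblast marker sums. Old library 4 stood apart for Nfkb2 at the low end (6.46 FPKM, the next at 7.26), while its endothelial sum of 218 FPKM lay within the range of the others.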

How the results depend on the processing

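In 22 alternative fits, limma called none of the genes that entered, in either direction. These were 7 genes in most fits, 4 at a minimum of 5 FPKM, and all 10, Tnf, Tnfaip3 and Nfkbie included, only without a filter. Among all features that entered, 12340 in most fits, limma called 19 to 300. At such shares few or no calls would fall on so few genes, so their absence says little. Over 151 values of single genes the smallest adjusted p was 0.240 (Nfkb1 without old library 1, limma, unadjusted p = 0.0348). Over 110 repeats of the exact permutation tests of single genes, 1 fell below 0.05 (Nfkb1 without old library 1, p = 0.0397). Vcam1 and Rela kept their sign in every fit they entered, with log2 differences of 0.093 to 0.37 and of -0.13 to -0.022. Icam1 and Vcam1 could not be fitted at a minimum of 5 FPKM, since they are below it, and neither could Relb.

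The differences of Nfkbia, Nfkb1, Nfkb2, Relb and Icam1 changed sign in 8, 1, 8, 5 and 1 of the alternative fits they entered. With median-ratio scaling Nfkbia was 0.056 and Nfkb1 0.0018. With the same total FPKM per library Nfkb2 was -0.031 and Relb -0.0067. Nfkb2 was -0.0023 with array weights and -6.7e-05 with leukocyte markers as a covariate. With immediate early genes as a covariate Nfkbia was 0.14 and Relb -0.033. Without young library 4 and old library 1 Nfkbia was 0.033 and Nfkb2 -0.012. When 1 library was left out, the log2 differences lay between -0.097 and 0.093 for Nfkbia, -0.025 and 0.040 for Nfkb2, -0.050 and 0.071 for Relb, -0.087 and 0.22 for Icam1, -0.028 and 0.066 for Nfkbie, and -0.012 and 0.13 for Nfkbia against Rela. The scalings moved the median of all tested features too, from -0.058 to -0.00012 with median ratios and to -0.093 with the same total, and the cause of the other turns was not tested.

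Over all features, where 220 were called, the count was 135 with median-ratio scaling (105 higher and 30 lower, against 85 and 135), 19 with the same total per library, 23 with immediate early genes as a covariate, 53 without young library 4 and old library 1, and 42 to 146 when 1 library was left out. With same-numbered libraries as a replicate block it was 26, with 0 of the 7 tested genes called. No label pairs the libraries, the deviations of same-numbered libraries correlated with r of -0.155 to 0.0618, and 0 of 5 young libraries were most like the old library of their number. Limits include the 5 libraries per age, the pair of libraries that stand apart (young 4 and old 1) and, for Tnf and Nfkbie, mean normalized counts of 9.42 and 11.0.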
